A study of Mus musculus with 6 samples.

Results

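The genes described here are 10 effectors of the integrated stress response that act with or downstream of the transcription factor ATF4 and its target CHOP: Atf4, Atf3, Atf5, Ddit3 (which encodes CHOP), Trib3, Chac1, Ppp1r15a, Ppp1r15b, Asns and Cebpb. They were chosen by symbol, and each of the 10 had its own row, with no other gene name in it, among 51482 measurements, of which 14575 were tested by the authors. RNA was sequenced from mouse embryonic fibroblasts of WT genotype that had been made immortal with SV40, a virus whose large T antigen inactivates p53 and the retinoblastoma protein. There were 3 samples kept in normoxia (21% oxygen) and 3 kept in hypoxia (0.5% oxygen), each for 16 h, and the comparison shows how low oxygen changed the transcripts of these cells. The deposited values are 1 FPKM (fragments scaled to transcript length and library size) per gene and condition, in which the authors combined the samples, so no SD, no interval and no order of single samples can be given, and the depth is unknown.

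The integrated stress response starts with 4 kinases that phosphorylate the translation initiation factor eIF2. PERK (Eif2ak3) responds to unfolded protein in the endoplasmic reticulum (ER), GCN2 (Eif2ak4) to amino acid shortage, HRI (Eif2ak1) to haem shortage and mitochondrial stress, and PKR (Eif2ak2) to double-stranded RNA. Phosphorylated eIF2 lowers protein synthesis in general but favours translation of a few mRNAs with upstream reading frames, Atf4 among them, and ATF4 then activates genes of amino acid supply, redox balance and, under lasting stress, CHOP and its targets. The kinase mTORC1, which is in the title of the study, is also known to raise the output of ATF4. All values below are of RNA and say nothing of eIF2 phosphorylation or of ATF4 protein.

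The words rose and fell are used only for a q, which is a p-value adjusted over all tested genes, below 0.05 in the authors' deposited table. Of the 10 members, 4 rose, 4 fell and 2 were not called. The background was high: 57.9% of all tested measurements were called, 28.9% higher in hypoxia and 29% lower, so a call in itself does not set a member apart. At q below 0.01 there were 3 members higher and 3 lower, against a background of 48.7% called (24.5% higher and 24.2% lower). At q below 0.05 and a change of at least 2-fold the background was 18.9% (9.03% higher and 9.87% lower), and 3 members passed it. These were Ddit3 and Ppp1r15a, which rose, and Chac1, which fell. The median log2 fold change of the members was 0.12 on the scale of log2(FPKM + 1), beside -0.0094 for all tested measurements, and their median absolute log2 fold change without a pseudocount was 0.36, beside 0.52 for all tested. All 10 members had a mean of at least 1 FPKM. Over the tested measurements with such a mean, the 2 background values were 0.0027 and 0.47. Rescaling hypoxia by the ratio of summed FPKM shifts every log2 fold change by -0.22 and takes the members' median to -0.10, with the called members keeping their direction. On the log2(FPKM + 1) scale Atf4 then went from 0.43 to 0.21 and Atf3 from 0.26 to 0.065, while the falls became larger. As a group the members therefore did not move in one direction.

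**Figure D1:**
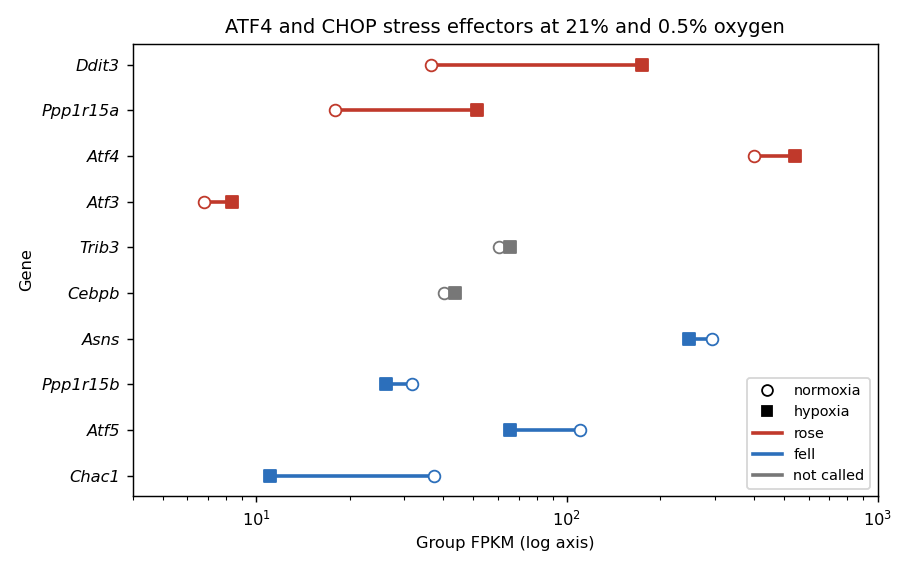
Group FPKM (log axis) of each of the 10 genes in normoxia (open circles) and hypoxia (filled squares), joined by a line coloured by the authors' call and ordered by fold change. Ddit3 moves from 36.4 to 175 FPKM and Chac1 from 37.4 to 11.1 FPKM, while the markers of Trib3 and Cebpb nearly touch.

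Short promoter stretches are shown first for the members that carry a C/EBP-ATF response element (CARE), the composite element that ATF4 binds together with a C/EBP partner. RefSeq promoter windows of GRCm38.p6, from 250 bases before to 50 bases after a gene's start, were matched for 9 members, and Ppp1r15b had no entry. With the CARE written as TGATGNAA and read on both strands, 4 of the 9 held 1 match each, against 3.97% of all 32851 windows. The members were chosen as genes that act with or downstream of ATF4, so this contrast is a description and not a test. Each line gives 30 bases of the gene's strand with the match in capitals; TTGCATCA and TTACATCA are the element read on the opposite strand.
Asns (chr6:7693214-7693243, minus strand): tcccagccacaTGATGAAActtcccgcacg
Atf3 (chr1:191183425-191183454, minus strand): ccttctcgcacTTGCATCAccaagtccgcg
Chac1 (chr2:119351038-119351067, plus strand): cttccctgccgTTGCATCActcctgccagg
Trib3 (chr2:152344028-152344057, minus strand): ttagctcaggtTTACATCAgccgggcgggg

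The match begins 23 bases before the RefSeq start in Asns, 110 bases before it in Atf3 and 193 bases before it in Chac1, and 14 bases after it in Trib3. The transcripts of these 4 genes did not move alike: Atf3 rose, Asns and Chac1 fell, and Trib3 was not called. A match is a description of letters, not of binding.

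The 2 members with the largest rise, Ddit3 and Ppp1r15a, are shown with the sequence before their starts because their windows held no CARE. Capitals mark matches, on either strand, to the cAMP response element TGACGTCA, the core letters ACGTG or GCGTG of the site that hypoxia-inducible factors (HIFs) bind, and the CCAAT box. The last base shown for Ddit3 is 20 bases before its RefSeq start. Its window also held 1 ACGTG match, which lies outside the stretch shown. The window of Ppp1r15a held 2 GCGTG matches, of which 1 lies outside the stretch shown.
Ddit3 (chr10:127290543-127290773, plus strand): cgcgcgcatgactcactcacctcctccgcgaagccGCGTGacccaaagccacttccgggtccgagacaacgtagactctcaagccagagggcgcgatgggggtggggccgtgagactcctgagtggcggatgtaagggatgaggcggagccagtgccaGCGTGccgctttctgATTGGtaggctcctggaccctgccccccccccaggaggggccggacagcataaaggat
Ppp1r15a (chr7:45526269-45526518, minus strand): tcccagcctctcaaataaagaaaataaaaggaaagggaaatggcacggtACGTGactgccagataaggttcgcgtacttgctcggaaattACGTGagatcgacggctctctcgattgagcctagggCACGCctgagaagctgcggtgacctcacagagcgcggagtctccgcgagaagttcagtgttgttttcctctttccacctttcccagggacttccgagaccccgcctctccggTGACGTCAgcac

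Ppp1r15a was the 1 member with a full cAMP response element, which 1.79% of all windows held, and it begins 12 bases before the start. Of the HIF core letters, ACGTG was in 19.6% of all windows and in 3 of the 9 matched members, and GCGTG in 32.4% of windows and in 8 of the 9. Members were counted by gene, over any of a gene's windows, and the background by window, and binding by HIFs was not tested. The CCAAT box was in 37.4% of windows and in 5 of the 9. No 2 matches overlapped in the members' windows, and the absence of a match says only that these letters are not within this window.

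The transcripts were also searched for start triplets ahead of the coding sequence, because upstream reading frames are known in several of these mRNAs. In the principal transcripts of the GENCODE M21 annotation, 7 of the 10 members had at least 1 ATG triplet before the main start codon, against 50.7% of 17023 genes, so most but not all members hold one, as do many genes. Atf4, Ppp1r15a and Ppp1r15b had 3 each, as 21.4% of genes have 3 or more. Ddit3, Atf5 and Asns had 2, Atf3 had 1, and Trib3, Chac1 and Cebpb had none. The 5′ untranslated regions of Atf4 and Ppp1r15b were the longest among the members, at 594 and 604 bases, beside a median of 155 bases over all genes. Members with 3 upstream triplets moved both ways in hypoxia, since Atf4 and Ppp1r15a rose and Ppp1r15b fell.

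Atf4 (chromosome 15, 80255184 to 80257541, plus strand, GRCm38, 3 exons), the central transcription factor of the response, was the most abundant member in both conditions. Its transcript stood at 401 FPKM in normoxia and 540.3 FPKM under hypoxia. This rise of 1.35-fold had a q of 0.000139 in the authors' deposited table, the smallest q that table holds, which 5148 tested measurements share. Its log2 fold change of 0.43 was above that of 72.2% of tested measurements. Abundant transcripts tended to rise in these data: among the 1212 measurements in the highest of 10 groups by mean FPKM, to which Atf4 belongs, 42.8% rose and the median log2 fold change was 0.15.

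Atf5 (chromosome 7, 44812256 to 44816658, minus strand, 3 exons), a paralog of Atf4 known for the mitochondrial unfolded protein response, fell. It went from 110 FPKM in normoxia to 65.8 FPKM under hypoxia, a 1.68-fold fall (q = 0.000139 in the authors' deposited table), and 18.1% of tested measurements had a lower log2 fold change. Thus the 2 factors moved in opposite directions, and the ratio of Atf4 to Atf5 FPKM went from 3.63 in normoxia to 8.21 in hypoxia. In the top abundance group, which also holds Atf5, 22.5% of measurements fell.

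Atf3 (chromosome 1, 191170296 to 191218039, minus strand, 4 exons), a stress-induced repressor and activator of the same family, was the least abundant member in both conditions. Its values were 6.77 FPKM in normoxia and 8.33 FPKM under hypoxia. The rise of 1.23-fold had a q of 0.0287 in the authors' deposited table, and it is the called member nearest to the threshold. In its abundance group 28.5% of measurements rose.

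Ddit3 (chromosome 10, 127290774 to 127296288, plus strand, 4 exons) encodes CHOP, the C/EBP-related factor that ATF4 induces and that is linked to cell death under lasting ER stress. It had the largest change of all members. Its transcript went from 36.4 FPKM in normoxia, where it ranked 7 of the 10, to 175 FPKM under hypoxia, where it ranked 3. This 4.81-fold rise (q = 0.000139 in the authors' deposited table) was above the log2 fold change of 97.5% of tested measurements. There were 11.0 FPKM of Atf4 for each FPKM of Ddit3 in normoxia and 3.09 in hypoxia.

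The last exon of Ddit3 overlaps the end of Mars, the methionyl-tRNA synthetase gene on the opposite strand, and the authors' locus for Ddit3 covers both. The annotation also has Gm4189 on the opposite strand and another entry named Ddit3 on the same strand, both overlapping the gene. The part of these overlaps in the Ddit3 value was not tested. Mars moved the other way, from 75.5 to 52.8 FPKM (q = 0.00708 in the authors' deposited table). The libraries were stranded, but the use of strand in the authors' quantification was not given in the sources used here. These values come from whole cultures, in which fewer cells with a transcript and less of it per cell cannot be told apart.

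Cebpb (chromosome 2, 167688915 to 167690418, plus strand, 1 exon) encodes C/EBP beta, a bZIP factor that can pair with ATF4 and with CHOP. It was at 40.2 FPKM in normoxia and 43.7 FPKM under hypoxia and was not called (q = 0.609 in the authors' deposited table). Ddit3 was below Cebpb in normoxia, with a ratio of 0.906, and above it in hypoxia, with a ratio of 4.01. The gene overlaps Tmem189 on the opposite strand, and the joint measurement of Gm20431, Tmem189 and Ube2v1 at the same locus was at 95.5 and 104 FPKM, also not called (q = 0.426 in the authors' deposited table).

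Trib3 (chromosome 2, 152337422 to 152344032, minus strand, 4 exons), a pseudokinase that ATF4 and CHOP induce and that restrains both, was not called. Its transcript was at 60.3 FPKM in normoxia and 65.6 FPKM under hypoxia (q = 0.271 in the authors' deposited table). Ddit3 stood at 0.604 times the FPKM of Trib3 in normoxia and at 2.67 times in hypoxia. With 1 value per condition, the interval of the differences in Trib3 and Cebpb cannot be given, and a q above the threshold does not show that they stayed equal.

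The 2 regulatory subunits that bring protein phosphatase 1 (PP1) to phosphorylated eIF2 moved in opposite directions. Ppp1r15a (chromosome 7, 45522916 to 45526268, minus strand, 3 exons) encodes GADD34, the inducible subunit that ends the response. It rose from 18.0 FPKM in normoxia to 51.4 FPKM under hypoxia (2.86-fold, q = 0.000395 in the authors' deposited table), above 94.6% of tested measurements by log2 fold change. Ppp1r15b (chromosome 1, 133131143 to 133139783, plus strand, 2 exons) encodes CReP, the constitutive subunit. It fell from 31.7 FPKM in normoxia to 26.1 FPKM under hypoxia (1.21-fold, q = 0.00717 in the authors' deposited table). This fall was small beside the background, since 35.8% of tested measurements had a lower log2 fold change.

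The order of the 2 subunits was therefore exchanged. Ppp1r15a was at 0.567 times the FPKM of Ppp1r15b in normoxia and at 1.97 times in hypoxia. The summed FPKM of the 2 genes went from 49.7 to 77.5. The authors' locus that holds Ppp1r15a spans 64.6 kb and also holds Nucb1 and a joint measurement of Bax, Dhdh and Gm45808. That joint measurement was at 85.7 FPKM in normoxia and 129 FPKM under hypoxia, a 1.51-fold rise (q = 0.0123 in the authors' deposited table), while Nucb1 was not called.

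Of the 2 metabolic enzymes among the members, the glutathione-degrading one fell more. Chac1 (chromosome 2, 119351229 to 119354381, plus strand, 3 exons) encodes a gamma-glutamylcyclotransferase that breaks down glutathione and is a classical late target of the ATF4 and CHOP pathway. Its transcript went from 37.4 FPKM in normoxia to 11.1 FPKM under hypoxia. This 3.37-fold fall had a q of 0.000139 in the authors' deposited table, and 3.82% of tested measurements had a lower log2 fold change. Chac1 and Ddit3 had nearly the same level in normoxia (37.4 and 36.4 FPKM) and were 11.1 and 175 FPKM under hypoxia.

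Asns (chromosome 6, 7675169 to 7693254, minus strand, 12 exons) encodes asparagine synthetase and is the textbook target of ATF4 under amino acid shortage. It was the second most abundant member in both conditions. Its transcript went from 293 FPKM in normoxia to 247 FPKM under hypoxia, a 1.19-fold fall (q = 0.0175 in the authors' deposited table). Of tested measurements, 37.2% had a lower log2 fold change. For each FPKM of Atf4 there were 0.732 FPKM of Asns in normoxia and 0.457 in hypoxia. Atf4 and Asns together made up 67.1% of the members' summed FPKM in normoxia and 63.8% in hypoxia.

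**Figure D2:**
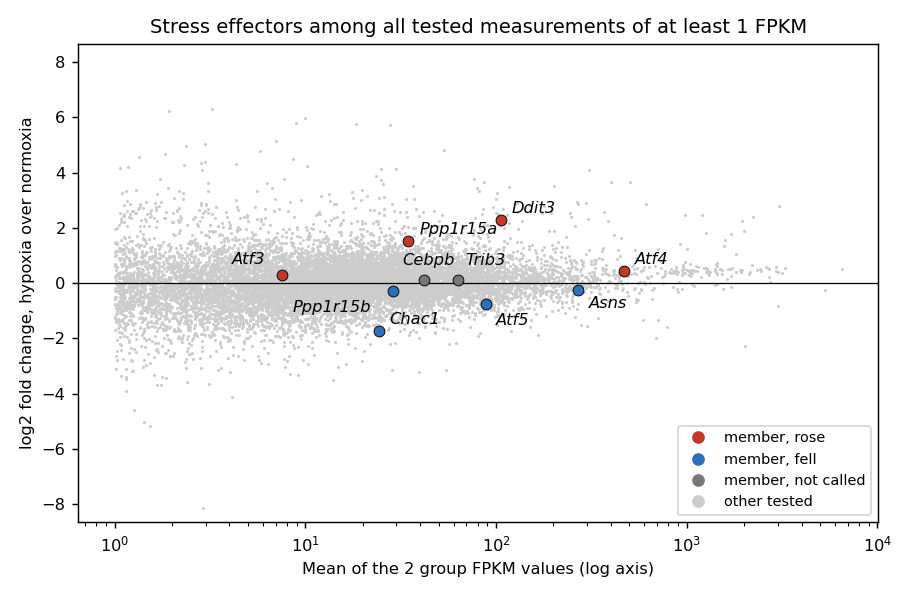
Log2 fold change of hypoxia over normoxia against the mean of the 2 group FPKM values (log axis) for tested measurements of at least 1 FPKM (grey), with the 10 genes coloured by the authors' call. Ddit3 at 2.27 and Ppp1r15a at 1.51 lie near the upper edge of the dense grey cloud, Chac1 at -1.75 lies near its lower edge, and the other 7 lie within 0.75 of 0.

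The wider pathway was described with 9 gene lists, counted over genes with their own row, a test and a mean of at least 1 FPKM. Under that filter 62.9% of 12127 measurements were called, 32.1% higher and 30.9% lower, with a median log2 fold change of 0.0027 on the log2(FPKM + 1) scale, which holds for all list medians below. The lists were chosen with earlier results of these data known, so the contrast between them is a description and not a test. The lists did not move alike. Stress targets of ATF4 or CHOP outside amino acid metabolism were mostly higher in hypoxia, and genes of amino acid synthesis, amino acid transport and tRNA charging were mostly lower, while 4 other lists were more evenly divided between rises and falls.

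**Figure D3:**
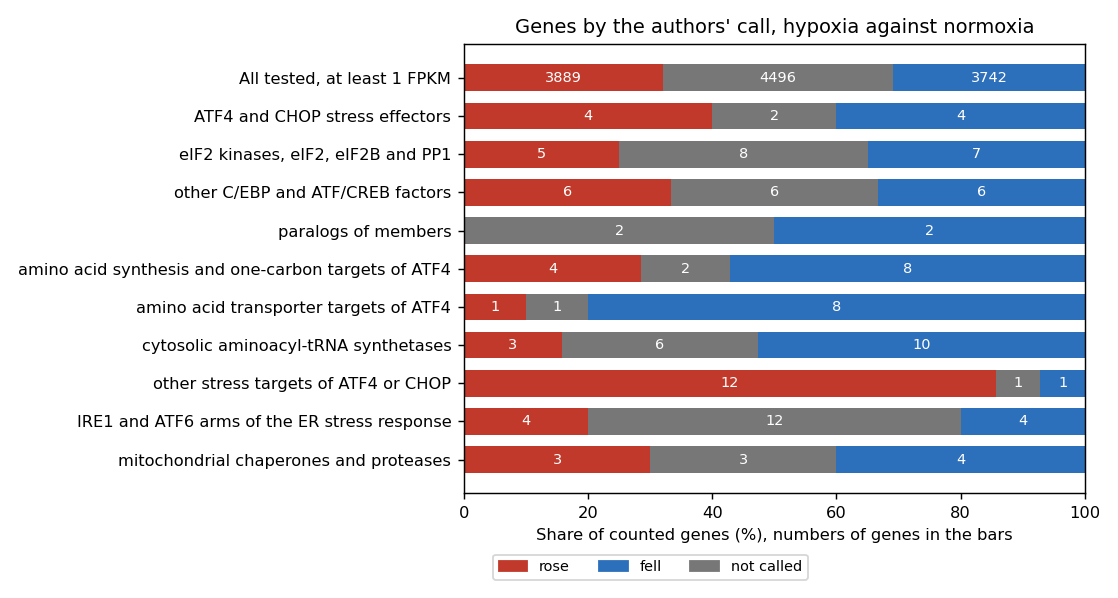
Share of counted genes (%) that rose, were not called or fell by the authors' call, with the number of genes in each bar, for all tested measurements of at least 1 FPKM, for the 10 genes and for the 9 lists. The bar of other stress targets of ATF4 or CHOP is the one dominated by rises (12 of 14), and that of the amino acid transporters by falls (8 of 10).

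Among other stress targets of ATF4 or CHOP, 12 of 14 counted genes rose, 1 fell and 1 was not called. The list median was 1.13. Ero1l, the ER oxidase that CHOP is known to induce, rose from 58.8 to 744 FPKM (12.7-fold), Vegfa, the angiogenic factor gene, from 101 to 508 FPKM (5.01-fold), and Vldlr, a lipoprotein receptor gene, from 32.1 to 122 FPKM (3.79-fold). The histone demethylase gene Kdm7a rose from 1.84 to 7.02 FPKM (3.81-fold). Ero1l, Vegfa, Vldlr and the mTORC1 inhibitor gene Ddit4 are also known targets of HIFs. Without these 4, a choice made after their values were seen, 8 of 10 rose, 1 fell and 1 was not called, and the median was 0.90. The genes that remain can have other inputs as well, and the part of HIFs, ATF4 or CHOP in any of these rises was not tested.

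Some of the genes that remain were chosen here after their values were seen, because they are direct effectors of cell stress. Gadd45a, a growth arrest gene, rose from 25.8 to 87.7 FPKM (3.39-fold) and Nupr1, a stress-induced chromatin protein gene, from 67.3 to 190.4 FPKM (2.83-fold). The genes of the death-promoting BH3 proteins PUMA (Bbc3) and BIM (Bcl2l11) rose from 8.17 to 20.9 FPKM and from 12.8 to 25.4 FPKM. The death receptor gene Tnfrsf10b, a known CHOP target, was at 15.7 and 16.3 FPKM and was not called (q = 0.632 in the authors' deposited table). The fall was that of Sesn2, a leucine sensor and ATF4 target, from 17.0 to 7.06 FPKM (2.40-fold).

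Genes of amino acid synthesis and one-carbon metabolism that ATF4 is known to activate fell in 8 of 14 cases and rose in 4, and the other 2 were not called. The list median was -0.27. The serine pathway genes Psph and Phgdh fell from 107 to 47.8 FPKM (2.24-fold) and from 308 to 190 FPKM (1.62-fold), and Shmt2, which passes the serine carbon to folate in mitochondria, from 220.4 to 123 FPKM. Psat1, the remaining serine synthesis gene, was at 323 and 348 FPKM and was not called (q = 0.341 in the authors' deposited table). Mthfd1l and Aldh1l2, enzymes of mitochondrial folate, moved the other way, from 23.7 to 57.9 FPKM (2.44-fold) and from 54.8 to 88.0 FPKM (1.60-fold).

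Amino acid transporters on the ATF4 target list fell in 8 of 10 cases and rose in 1, and the remaining 1 was not called. The list median was -0.47. The cationic amino acid transporter gene Slc7a3 fell from 21.6 to 8.13 FPKM (2.65-fold), and the glutamine transporter genes Slc38a1 and Slc1a5 fell from 32.2 to 13.5 FPKM (2.39-fold) and from 102 to 48.8 FPKM (2.08-fold). Slc43a1 fell from 3.31 to 2.09 FPKM. The rise was that of Slc3a2, the shared heavy chain of several amino acid exchangers, from 230.1 to 331 FPKM (1.44-fold).

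Of 19 cytosolic aminoacyl-tRNA synthetase genes, which attach amino acids to their tRNAs and include many ATF4 targets, 10 fell, 3 rose and 6 were not called. The list median was -0.32. Wars, for tryptophan, fell from 43.3 to 17.2 FPKM (2.52-fold), Lars, for leucine, from 71.9 to 30.6 FPKM (2.35-fold) and Hars, for histidine, from 54.2 to 28.8 FPKM (1.88-fold). Dars, for aspartate, rose from 59.0 to 123 FPKM (2.08-fold) and Sars, for serine, from 209 to 310.4 FPKM (1.48-fold).

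**Figure D4:**
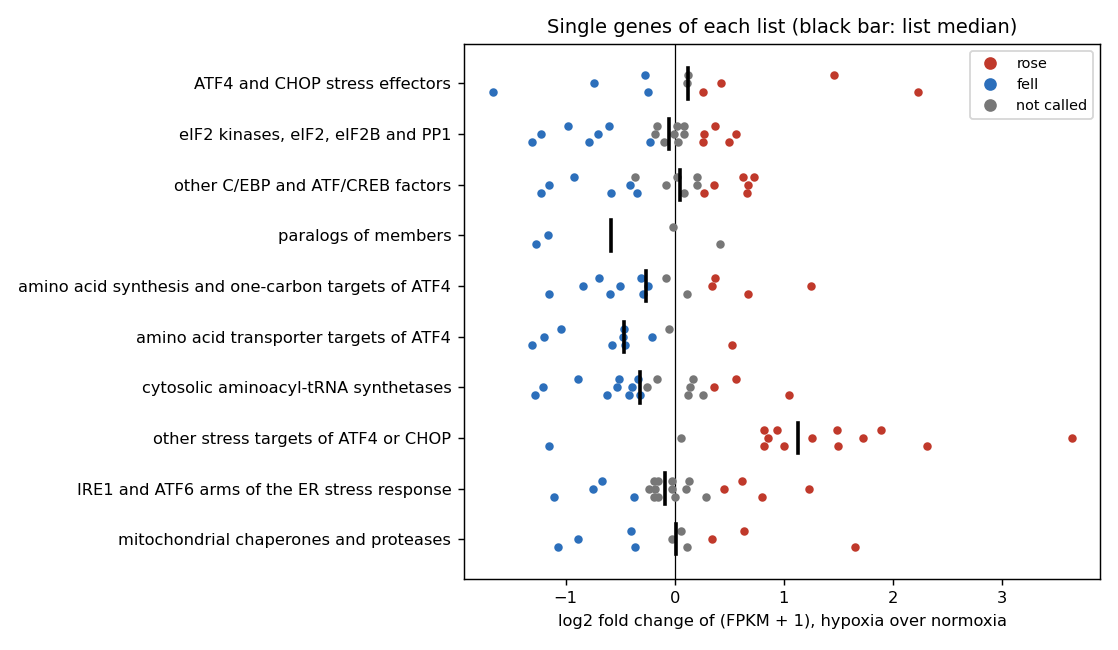
Log2 fold change of (FPKM + 1), hypoxia over normoxia, of the 10 genes and of each counted gene of the 9 lists, coloured by the authors' call, with the list median as a black bar. The median of the other stress targets is at 1.13, and those of the amino acid transporters and tRNA synthetases are at -0.47 and -0.32.

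Upstream of the members, 5 of 20 counted genes of eIF2 kinases, eIF2, its exchange factor eIF2B and PP1 rose, 7 fell and 8 were not called. The list median was -0.052. The 4 kinases are given here in full, a choice made after their values were seen. Eif2ak3 (PERK) rose from 11.0 to 13.5 FPKM and Eif2ak4 (GCN2) from 11.6 to 14.0 FPKM, each by about the size of the Atf3 rise (1.23-fold and 1.21-fold). Eif2ak2 (PKR) fell from 18.9 to 7.50 FPKM (2.52-fold) and Eif2ak1 (HRI) from 15.4 to 9.05 FPKM (1.70-fold). Oma1, the mitochondrial protease that relays mitochondrial stress to HRI, fell from 4.84 to 1.97 FPKM (2.46-fold).

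Further down the same list, Eif2b3, a subunit of eIF2B, fell from 26.1 to 9.97 FPKM (2.62-fold) and Gcn1l1, the activator of GCN2, from 22.8 to 12.8 FPKM (1.78-fold). The 3 eIF2 subunit genes Eif2s1, Eif2s2 and Eif2s3x were not called, with Eif2s1 at 60.9 and 60.7 FPKM (q = 0.983 in the authors' deposited table). The PP1 catalytic subunit gene Ppp1cb rose from 115 to 170 FPKM (1.48-fold), and Nck1, an adaptor that assists eIF2 dephosphorylation, from 25.2 to 35.9 FPKM (1.43-fold).

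Other C/EBP and ATF/CREB factors, which can pair with members of the group, were evenly divided: 6 of 18 rose, 6 fell and the other 6 were not called (list median 0.053). Cebpa, the factor of adipocyte and myeloid differentiation, fell from 2.02 to 0.353 FPKM (5.72-fold), Atf6b from 43.8 to 18.2 FPKM (2.42-fold) and Creb3 from 37.5 to 19.3 FPKM (q = 0.0228 in the authors' deposited table). Creb5 rose from 1.46 to 2.90 FPKM (1.99-fold). Cebpg, a known partner of ATF4 that is named here after its values were seen, rose from 25.6 to 43.0 FPKM (1.68-fold).

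Among 4 paralogs of Trib3 and Chac1 or enzymes of like activity, none rose, 2 fell and 2 were not called. Trib1 fell from 4.98 to 1.47 FPKM (3.38-fold), unlike Trib3, whose change was not called. Ggct, a gamma-glutamylcyclotransferase like Chac1, fell from 12.9 to 5.21 FPKM (2.47-fold). Chac2 was at 5.54 FPKM in normoxia and 7.70 FPKM under hypoxia and was not called (q = 0.189 in the authors' deposited table).

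The other arms of the ER stress response, through IRE1 and ATF6, rose in 4 of 20 counted genes, fell in 4 and had no call in 12 (list median -0.088), so 40% were called beside the background of 62.9%. Hspa5, which encodes BiP, the main ER chaperone and the usual marker of ER stress, was at 722 and 631 FPKM (q = 0.231) and Xbp1, the factor spliced by IRE1, at 60.6 and 59.7 FPKM (q = 0.860), both named after their values were seen and neither called in the authors' deposited table. Hsp90b1, an ER chaperone gene, rose from 423 to 997 FPKM (2.36-fold) and Dnajb9, a BiP cofactor gene, from 7.09 to 13.1 FPKM. The cofactor gene Dnajb11 fell from 62.6 to 28.6 FPKM (2.19-fold) and Hyou1, an ER chaperone gene also known as ORP150, from 63.7 to 37.4 FPKM (1.70-fold).

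Mitochondrial chaperones and proteases, which respond with Atf5 to misfolded mitochondrial protein, fell in 4 of 10 counted genes, rose in 3 and had no call in 3 (list median 0.014). Lonp1, the matrix protease gene, rose from 112 to 355 FPKM (3.16-fold) and Clpx, the unfoldase gene of another matrix protease, from 14.8 to 23.5 FPKM (1.59-fold). Hspd1, which encodes the chaperonin HSP60, fell from 194 to 104 FPKM (1.86-fold) and Htra2, the gene of a protease between the mitochondrial membranes, from 50.5 to 23.5 FPKM (2.15-fold).

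Markers of the labelled cell type were present: 9 of 10 fibroblast markers with their own row, Col1a1, Fn1 and Vim among them, were at 1 FPKM or more in both conditions, and their summed level was 2524 FPKM in normoxia and 4030.0 FPKM under hypoxia. The higher sum came mostly from Vim (883 and 2249 FPKM), with Fn1 and Fbln2 also higher, whereas Col3a1 (328 and 182 FPKM), Col1a2 (140.1 and 91.7 FPKM), Col1a1 (463 and 451 FPKM), Thy1 and Pdgfrb had lower values under hypoxia. Lum was at 0.0123 FPKM and listed at 0 in hypoxia. Of 5 epithelial markers 4 were at 1 FPKM or more in both conditions, with a summed level of 353 and 462 FPKM that came mostly from Krt18 (313 and 443 FPKM), and Krt5 was listed at 0 in normoxia. Krt8 (28.3 and 10.1 FPKM), Cdh1 (5.93 and 3.76 FPKM) and Epcam (5.97 and 5.22 FPKM) had lower values under hypoxia. The part of these markers in the results above was not tested. Endothelial, skeletal muscle, adipocyte and neuronal markers were all below 1 FPKM in both conditions, as were the leukocyte markers except Cd68 (1.32 and 2.27 FPKM).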

How the data were processed

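Per the labels' protocols, poly-A RNA was selected and turned into stranded libraries. The submitters' processing notes name Cuffdiff 2.2.1, Cufflinks, StringTie 1.3.4d and HISAT2 2.1.0, with the build GRCm38. The authors deposited 1 gene table with 1 FPKM per gene and condition, and, per the file headers, with the p-value, q-value, log2 fold change and test statistic (a score, not used here) of their comparison. The setting that scales libraries was not given in the sources used here. Calls are the authors' deposited q below 0.05; no test of replicates could be run on combined values, and the series design calls the replicates biological.

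Rows that repeat 1 measurement were counted once (53207 rows, 51482 measurements). Folds are ratios of the 2 FPKM values. List medians use log2(FPKM + 1), which understates the change of low genes. Lists were counted at a mean of at least 1 FPKM, leaving out rows with several gene names; 3 symbols had no row and were not analysed here. Coordinates are 1-based, from GENCODE M21. For upstream ATG triplets, 1 protein-coding APPRIS principal transcript per gene was used.

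The members and lists were chosen with earlier results of these data known. Named from each list by rule were all called genes where 5 or fewer were called, and otherwise the 4 with the largest change and up to 2 against the majority. Psat1, Chac2, Ddit4, Eif2s1, Eif2s2 and Eif2s3x were named outside this rule. So were the genes marked as chosen or named after their values were seen. Likeness across 2 values is not defined, so no genes were named for it. Alternatives were a q of 0.01, a 2-fold threshold, other FPKM filters, a pseudocount of 0.1, rows with several gene names and rescaling. The functions for rescaling and for matching sequences were tested on simulated data without noise. The q-values were set by hand there, so the calling of genes was not tested. Python 3.11.15 and pandas 2.3.3 were used.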

Additional observations from a re-analysis of the deposited data

How the results depend on the processing

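No paired analysis was possible because the deposited columns hold 1 combined value per condition, and for the same reason no sample could be left out. With a threshold of 2-fold beside q below 0.05, 2 members were called higher and 1 lower. At a q below 0.01 and with filters of 1 or 5 FPKM the members' counts in each direction stayed within 1.5 times those reported. Rescaling by the ratio of summed FPKM (1.17), an alternative added after seeing the data, shifts every log2 fold change by -0.22. The members' median then reversed to -0.10, as did Trib3 (-0.100) and Cebpb (-0.10), neither of which was called. The called members kept their direction, but Atf3 was left at 0.065 and Atf4 at 0.21. Under the same rescaling the medians of the other C/EBP and ATF/CREB factors (-0.13) and of the mitochondrial chaperones and proteases (-0.20) also changed sign, and that of the other stress targets was 0.91. With a filter of 5 FPKM, 1 paralog was called lower in place of 2, since Trib1 falls under the filter. All other list counts stayed within 1.5 times under the alternatives run. The depth is unknown, so no limit from counting can be given.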

Other observations

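The CARE was also looked for across all tested genes with a RefSeq promoter entry. Of 248 tested genes with a match in their window, 26.6% rose and 33.5% fell, beside 30.7% and 31.7% of all 9600 tested genes with an entry. Of 344 with the cAMP response element, 34.0% rose and 29.1% fell. These shares are descriptions of 1 combined value per condition.

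At the locus of Atf5, the authors' table also holds the joint measurement of Il4i1 and Nup62, which lie on the opposite strand and overlap the start of Atf5. It was at 58.0 and 61.2 FPKM and was not called (q = 0.699 in the authors' deposited table). Akt1s1, which encodes the mTORC1 inhibitor PRAS40, lies at the same locus and was at 40.7 and 39.5 FPKM (q = 0.899 in the authors' deposited table). Tbc1d17 there rose from 20.8 to 38.4 FPKM (1.85-fold, q = 0.0470 in the authors' deposited table).

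The stress hormone gene Fgf21, a secreted ATF4 target, rose from 15.0 to 27.9 FPKM (1.86-fold), whereas Gdf15, another secreted target, was at 0.244 and 0.323 FPKM and was not called (q = 0.299 in the authors' deposited table). Eif4ebp1, the translation repressor that ATF4 induces and mTORC1 inactivates, rose from 243 to 430 FPKM (1.77-fold). Sqstm1, the gene of the autophagy receptor p62, rose from 176 to 311 FPKM (1.77-fold). All 4 were named after their values were seen.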
